A study of Mus musculus with 9 samples.

Results

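Triglyceride synthesis genes, lipases and droplet coat genes were followed in mouse muscle through 10 features of the deposited sheet, chosen by gene symbol from the 19335 listed. They comprised Lpin1, Dgat1 and Dgat2 of triglyceride synthesis, the lipases Pnpla2, Lipe and Mgll, the perilipins Plin3, Plin4 and Plin5, and Gm26588, a non-coding feature on the strand opposite Mgll. Muscle fibres store fatty acids as triglyceride in lipid droplets. Lipins and diacylglycerol acyltransferases carry out the last steps of synthesis. Adipose triglyceride lipase (Pnpla2), hormone-sensitive lipase (Lipe) and monoacylglycerol lipase (Mgll) release the fatty acids in turn, and perilipins coat the droplet and control access of the lipases to it.

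The mice were wild-type C57BL/6J, a common inbred strain, 9 weeks old at assignment, with 2 weeks of acclimatisation and 8 weeks of feeding, and all were fasted for 6 h before collection. The control diet supplied 10% of energy as fat and the high-fat diet 60%. A group fed the latter also received L-carnitine, the carrier of long-chain fatty acids into mitochondria, at 100 mg/kg/day in its drinking water, and is called the carnitine group. Each group had 3 libraries. Neither the muscle nor whether the libraries are from different mice is stated in the labels, and p-values therefore measure only the spread between libraries, which may be technical.

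Counts per library totalled 2315985 to 3773649. All 13 fast-fibre markers were measured at a summed level of 46090 to 89060 CPM (TMM-normalised counts relative to library size), lowest in the 3 carnitine libraries at 51750 or less, against 20.8 to 91.0 CPM for 8 slow-fibre markers. Myh4 was the largest part of the fast-fibre sum in every library. Not every fast-fibre marker was lowest with carnitine, and Tnnc2 was highest in carnitine 1, at 2300 CPM. The 7 adipocyte markers measured summed to 40.1 to 60.2 CPM in control, 62.0 to 82.2 CPM on the high-fat diet and 48.6 to 130.1 CPM in the carnitine group, most of it Fabp4, the only marker tested. Adipoq had 2 counts in high-fat diet 3 and 0 in the other libraries, Plin1 had 4 in each of high-fat diet 1 and 2 and 0 elsewhere, and Retn and Adrb3 had at most 1. Cfd had 40 counts in control 2 and 0 to 10 elsewhere, and Cidec had 7 in carnitine 2 and 0 to 2 elsewhere. Which strand the authors counted is not stated in the labels or the file. The 3 features with the most counts, Rabep2, A930016O22Rik and Ube2c, lie opposite the muscle genes Atp2a1, Ckm and Tnnc2. They held 16.6%, 13.1% and 9.47% of all counts, against 0.552%, 0.525% and 0.172% for the muscle genes themselves. If reads were assigned to the strand opposite their gene, the Gm26588 row could hold reads of Mgll, and the rows of members with no opposite feature only a small part of their own reads. Which case holds was not tested, and every level and difference below is that of the row under the symbol in the file. Features that overlap no opposite-strand gene held 9.31% to 15.5% of a library's counts, with control 2 at 10.3%, carnitine 2 at 9.31% and carnitine 3 at 9.98% and the other libraries at 12.8% or more. Carnitine 1 also stood apart, with 188 CPM summed over 8 endothelial markers against 45.0 to 104 CPM elsewhere. As the samples are bulk muscle, fewer cells of a type and less RNA per cell cannot be told apart.

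Against control, the count of Gm26588 rose in the carnitine group, the only call among the members in the edgeR fit of all 9 libraries. Plin4 passed with carnitine against the high-fat diet in DESeq2. In edgeR it did so in 1 of 6 fits with a library left out, that without carnitine 1. Lpin1 and Plin5 had their highest levels in the 3 libraries of the high-fat diet alone, and Plin4 its lowest in the 3 carnitine libraries. In the edgeR fit of all 9 libraries these differences all fell short of the threshold of an adjusted p of 0.05 over all 7523 tested features. The design asks what the diet changed, what carnitine changed on that diet, and how the carnitine group stood against control. Of the members, 9 passed the expression filter and Dgat2 did not. By edgeR's quasi-likelihood test, high-fat diet against control called 0 of the 9, beside 0.0532% of all features, all lower. Before adjustment 3 members were higher and 0 lower at p below 0.05, beside 2.69% and 3.63% of all features. Carnitine against the high-fat diet alone also called 0, beside 0.0532% (0.0399% higher and 0.0133% lower). Before adjustment 0 members were higher and 3 lower there, beside 5.44% and 6.58%. Carnitine against control called 1, beside 0.425% (0.213% in each direction), and before adjustment 2 members were higher and 1 lower, beside 4.33% and 6.03%. DESeq2 called 0, 1 and 1 members in the same order, beside 0.465%, 0.558% and 0.917% of all features, and limma-voom 0, 0 and 1, beside 0.239%, 0.0532% and 0.399%.

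**Figure D1:**
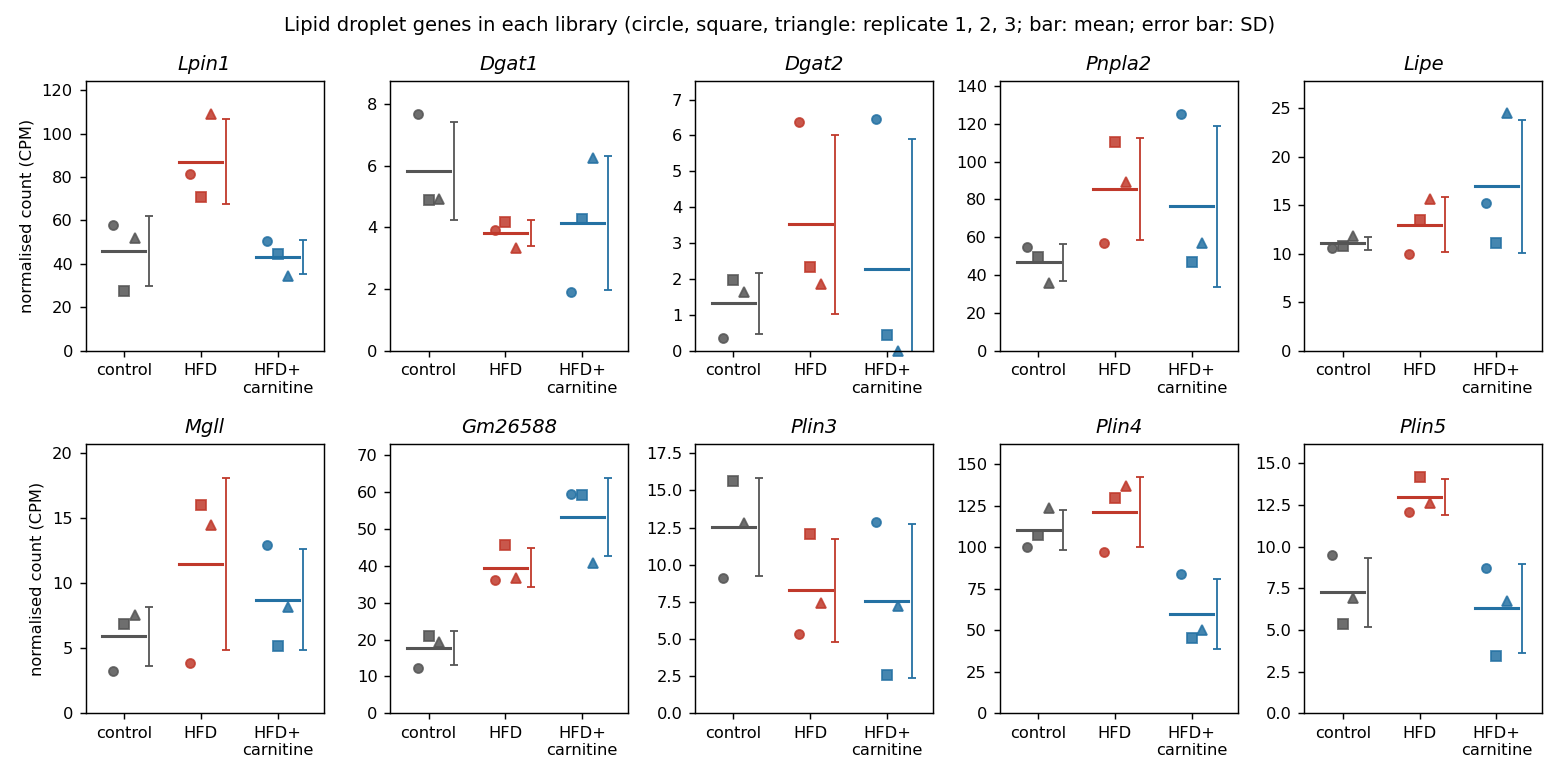
Normalised count (CPM, vertical axes from 0) of each of the 10 members in the 9 libraries, by group (HFD, high-fat diet). Symbols are replicates, horizontal bars group means and error bars the SD of 3 libraries. Gm26588 was above every control library in all 6 high-fat diet libraries, and Plin4 was lowest in the 3 carnitine libraries.

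The fold changes of the 9 tested members had a median log2 value of 0.82 on the high-fat diet against control, with 7 of the 9 above 0, while over all tested features the median was 0.0042 and 50.6% were above 0. Libraries of the groups did not overlap for 4 members that were higher on the high-fat diet (Lpin1, Pnpla2, Plin5 and Gm26588), where 7.23% of all features did so, and for 1 that was lower (Dgat1), where 6.86% did. With carnitine against the high-fat diet alone the members' median was −0.16 and 3 of 9 were above 0, beside 49.4% of all features. In that comparison 3 members lay entirely below the high-fat diet libraries (Lpin1, Plin4 and Plin5), beside 9.82% of all features, and 0 entirely above, beside 10.2%. Against control the carnitine group had a member median of −0.09 and 4 of 9 above 0, beside 49.7%, with Gm26588 entirely above and Plin4 entirely below, beside 6.45% and 7.18% of all features. The comparisons share libraries, so their values for a member are not independent of each other.

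**Figure D2:**
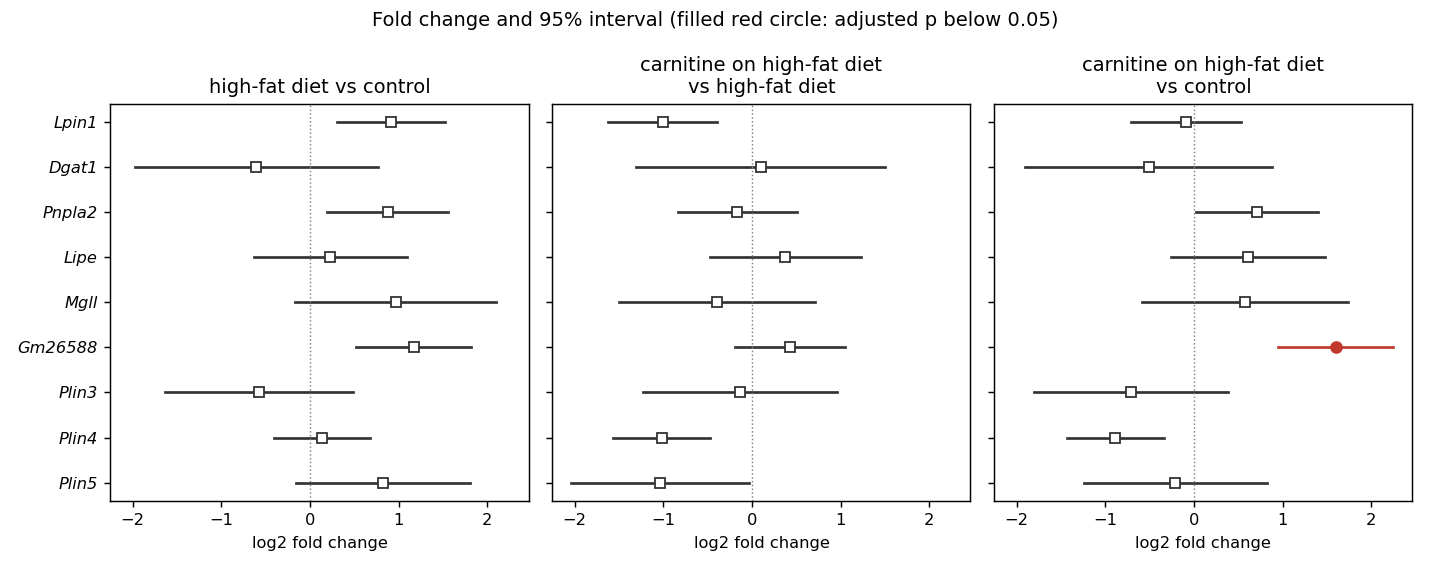
Log2 fold change (horizontal axis) of each tested member with its 95% interval in the 3 comparisons, from the fit over all features. The interval of Gm26588 in the carnitine group against control runs from 0.95 to 2.25 and is the only one drawn as passing.

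Gm26588 is a long non-coding RNA feature (ENSMUSG00000097730, chromosome 6, 88693404 to 88702842, minus strand, GRCm39). It overlaps the first 1449 bp of Mgll (ENSMUSG00000033174, 88701394 to 88805342, plus strand). In the GENCODE M21 annotation, built on GRCm38, exons of the pair share 167 bp, 3.29% of the exon sequence of Mgll, of which 62 bp are coding in Mgll. A RefSeq promoter window of Mgll is shown because it lies within Gm26588. All 300 bases of chr6:88724162-88724461 (GRCm38.p6, plus strand) are exon sequence of Gm26588 in M21, and the 50 bases in capitals are exon sequence of both genes.
Mgll promoter: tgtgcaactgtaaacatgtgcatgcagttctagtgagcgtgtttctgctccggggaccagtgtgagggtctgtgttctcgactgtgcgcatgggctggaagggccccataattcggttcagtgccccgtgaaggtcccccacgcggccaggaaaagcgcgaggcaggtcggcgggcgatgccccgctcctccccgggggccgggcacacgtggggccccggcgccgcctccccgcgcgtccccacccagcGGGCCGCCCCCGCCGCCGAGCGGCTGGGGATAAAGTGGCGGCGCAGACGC
The window held 32 CpG dinucleotides, against a median of 7 over the RefSeq promoter windows.

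Gm26588 counted 12.4, 21.05 and 19.4 CPM in control 1, 2 and 3. It counted 36.2, 45.5 and 36.8 CPM on the high-fat diet, and 59.5, 59.1 and 40.9 CPM with carnitine. Every library on the high-fat diet, with or without carnitine, was above every control library. Group means were 17.6 ± 4.58, 39.5 ± 5.21 and 53.2 ± 10.7 CPM (SD, n = 3 each). The carnitine group was higher than control by a log2 fold change of 1.60 (SE 0.32, 95% interval 0.95 to 2.25, adjusted p = 0.0198). The high-fat diet alone was at 1.17 against control (SE 0.32, adjusted p = 0.166), and carnitine at 0.43 against the high-fat diet (SE 0.30, interval −0.19 to 1.05, adjusted p = 0.596), neither passing. The call against control did not pass without control 1 (adjusted p = 0.120), control 3 (0.0942) or carnitine 2 (0.0941), or in a fit of the 6 libraries of these groups alone (0.0565), with log2 fold changes of 1.41 to 1.68.

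Mgll, whose enzyme cleaves monoacylglycerols in the last step of lipolysis, had 9, 14 and 23 counts in control 1, 2 and 3, 11, 69 and 39 in the high-fat diet libraries, and 34, 12 and 17 in those with carnitine. The groups overlapped throughout. Means were 5.90 ± 2.29, 11.5 ± 6.60 and 8.74 ± 3.91 CPM, and no comparison passed (log2 fold changes 0.97, −0.39 and 0.57, SE 0.54 to 0.57, smallest adjusted p = 0.801). In Gm26588 the carnitine libraries had the highest mean, whereas in Mgll the high-fat diet libraries did. Mgll and the features opposite it were also summed into 1 row. As the exons of Mgll and Gm26588 share only 167 bp, this sum still depends on the strand counted. It is therefore no strand-free level of Mgll. Gm43937, also opposite Mgll, added 5 counts over all libraries. The sum averaged 24.0 ± 5.97, 51.0 ± 10.8 and 61.9 ± 11.8 CPM. It was higher with carnitine than in control by 1.37 (SE 0.30, adjusted p = 0.0409), while the high-fat diet alone was at 1.09 (SE 0.30, adjusted p = 0.187).

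**Figure D3:**
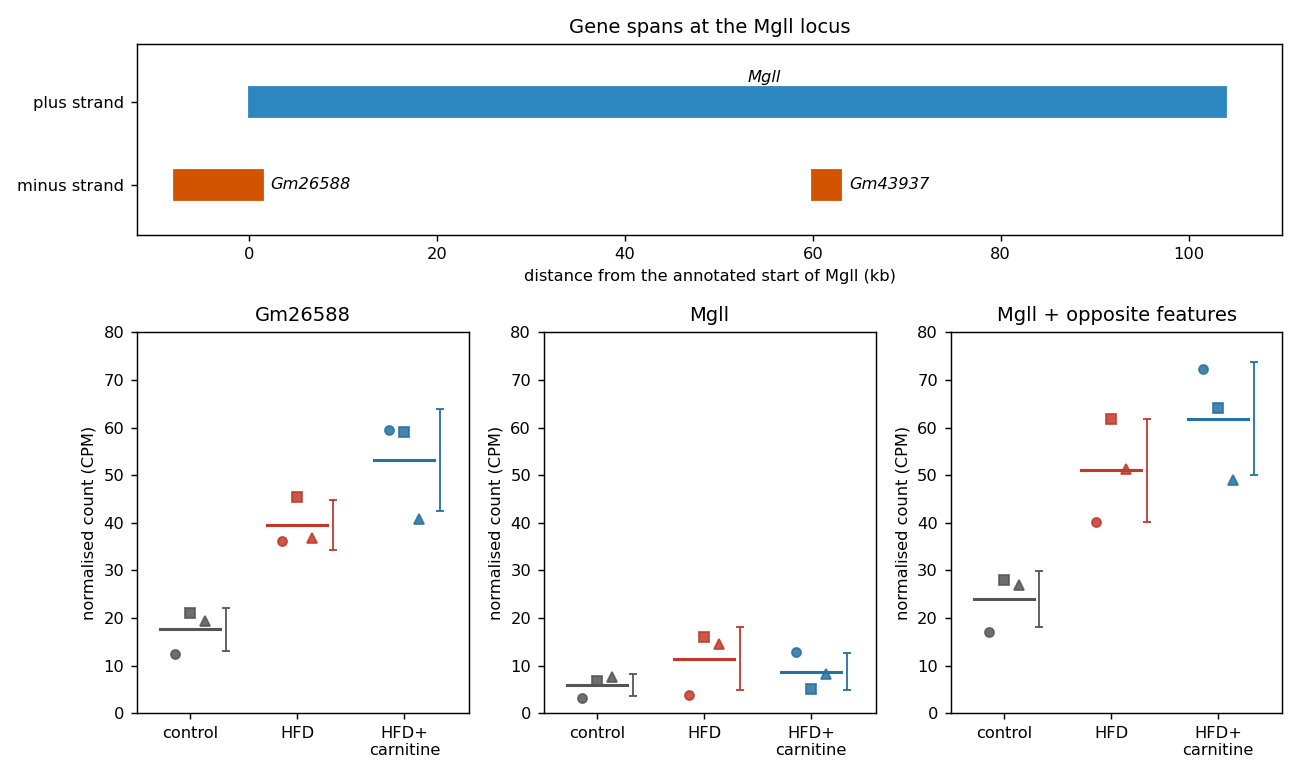
Top, gene spans at the Mgll locus on each strand (horizontal axis, distance from the annotated start of Mgll in kb). Bottom, normalised count (CPM) of Gm26588, of Mgll and of Mgll with the opposite features summed in each library (symbols, replicates 1, 2 and 3; bars, means; error bars, SD), with the summed row at 17.1 to 27.9 CPM in control and 40.1 CPM or more elsewhere.

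In triglyceride synthesis, Lpin1 encodes lipin 1, the phosphatidate phosphatase of muscle that makes diacylglycerol and also acts as a transcriptional co-regulator (ENSMUSG00000020593, chromosome 12, 16585670 to 16696967, minus strand). It overlapped no opposite-strand feature. Lpin1 counted 58.0, 27.4 and 52.0 CPM in control, 81.6, 70.8 and 109 CPM on the high-fat diet, and 50.4, 44.5 and 34.6 CPM with carnitine. The lowest high-fat diet library was above all libraries of the other groups. Means were 45.8 ± 16.2, 87.1 ± 19.6 and 43.2 ± 7.99 CPM. The log2 fold change was 0.92 on the high-fat diet against control (SE 0.30, interval 0.31 to 1.53, adjusted p = 0.321) and −1.01 with carnitine against the high-fat diet (SE 0.30, interval −1.62 to −0.39, adjusted p = 0.226). Carnitine against control was at −0.09 (interval −0.71 to 0.53, adjusted p = 0.947). With features that have and lack an opposite gene scaled separately, the value for carnitine against the high-fat diet was −0.68 (SE 0.28, adjusted p = 0.407), and with the share of counts on the latter as a covariate it was −0.58 (SE 0.31, adjusted p = 0.845).

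The acyltransferases that attach the last fatty acid were low. Dgat1 had 5 to 21 counts per library, with means of 5.83 ± 1.59, 3.81 ± 0.425 and 4.14 ± 2.18 CPM in the control, high-fat diet and carnitine groups. Its 3 high-fat diet libraries were below all control libraries, at 3.34 to 4.18 against 4.89 to 7.67 CPM, with a log2 fold change of −0.61 and an interval of −1.98 to 0.76 (adjusted p = 0.951). Dgat2, an unrelated enzyme for the same reaction, had 1, 4 and 5 counts in control, 18, 10 and 5 in the high-fat diet libraries, and 17, 1 and 0 in those with carnitine. The higher counts came from high-fat diet 1 and 2 and carnitine 1. A library's limit of 3 counts, which a count of 0 allows, was 0.696 to 1.47 CPM, for counting error only.

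Among the droplet coat genes, Plin4, which encodes a perilipin of muscle and fat, held the most reads of any member, 31.6% of the counts of all 10 (ENSMUSG00000002831, chromosome 17, 56407591 to 56416803, minus strand). It counted 100.4, 108 and 124 CPM in control, 97.2, 129.7 and 137 CPM on the high-fat diet, and 83.8, 45.4 and 50.0 CPM with carnitine. All 3 carnitine libraries were below every other library, and carnitine 1 was the nearest to them. Means were 111 ± 11.9, 121 ± 21.2 and 59.7 ± 20.97 CPM. The log2 fold change was −1.02 against the high-fat diet (SE 0.27, interval −1.57 to −0.47, adjusted p = 0.187) and −0.89 against control (SE 0.27, adjusted p = 0.194). Without carnitine 1 Plin4 passed in both comparisons, at −1.34 (SE 0.26, adjusted p = 0.00811) and −1.21 (SE 0.26, adjusted p = 0.0141), and DESeq2 called the first with all libraries (−1.01, adjusted p = 0.0311). In each comparison that was 1 of 6 edgeR fits with a library left out, with adjusted p of up to 0.513 and 0.597 in the others. Without carnitine 1, calls over all features were 84 and 86 of 8087, against 4 and 32 with all libraries. The high-fat diet alone was at 0.13 against control, with an interval of −0.40 to 0.67.

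Plin4 overlaps the opposite-strand gene Hdgfl2, a chromatin-associated factor, by 17 bp at their ends. Hdgfl2 counted 118, 259.9 and 149 CPM in control, 87.2, 96.1 and 86.2 CPM on the high-fat diet, and 113, 95.1 and 88.9 CPM with carnitine, so its lowest control library was above the other groups. It was at −0.96 on the high-fat diet against control (SE 0.27, adjusted p = 0.183) and 0.14 with carnitine against the high-fat diet (adjusted p = 0.877). The sum of Plin4 and Hdgfl2 averaged 287 ± 75.8, 211 ± 23.1 and 159 ± 32.7 CPM, and carnitine against the high-fat diet was then at −0.41 (SE 0.24, adjusted p = 0.500). As Hdgfl2 is a separate protein-coding gene that shares only 17 bp with Plin4, this sum is no level of Plin4.

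Plin5, the perilipin of oxidative tissues that links droplets to mitochondria, lies beside Plin4 on the same strand (ENSMUSG00000011305, 56418601 to 56424596). It had 26, 11 and 21 counts in control, 34, 61 and 34 in the high-fat diet libraries, and 23, 8 and 14 in those with carnitine. In CPM the high-fat diet libraries, at 12.1 to 14.2, did not overlap control, at 5.38 to 9.49, or carnitine, at 3.43 to 8.72. Means were 7.26 ± 2.08, 12.9 ± 1.09 and 6.29 ± 2.67 CPM. The log2 fold change was 0.82 on the high-fat diet against control (SE 0.48, interval −0.16 to 1.81, adjusted p = 0.866) and −1.03 with carnitine against the high-fat diet (SE 0.49, interval −2.04 to −0.03, adjusted p = 0.397). Plin3, a perilipin found in most tissues, had 6 to 52 counts per library and overlapping groups, with means of 12.5 ± 3.28, 8.27 ± 3.45 and 7.56 ± 5.17 CPM. Its log2 fold changes were −0.57, −0.14 and −0.71 (SE 0.52 to 0.53, smallest adjusted p = 0.704).

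Promoter windows of Lpin1, Plin4 and Plin5, the members that lay lower with carnitine than on the high-fat diet in all libraries, are given from RefSeq (GRCm38.p6, all minus strand, 300 bases around the start), at chr12:16610917-16611216, chr17:56109733-56110032 and chr17:56117499-56117798. Capitals mark AGGTCA, the core motif of many nuclear receptors, and CCAAT, on either strand.
Lpin1 promoter: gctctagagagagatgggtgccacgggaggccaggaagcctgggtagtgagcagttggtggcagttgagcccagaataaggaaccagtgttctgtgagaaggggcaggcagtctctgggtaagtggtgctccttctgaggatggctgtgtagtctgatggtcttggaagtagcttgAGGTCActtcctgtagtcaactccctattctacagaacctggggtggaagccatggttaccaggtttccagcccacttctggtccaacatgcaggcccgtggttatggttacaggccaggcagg
Plin4 promoter: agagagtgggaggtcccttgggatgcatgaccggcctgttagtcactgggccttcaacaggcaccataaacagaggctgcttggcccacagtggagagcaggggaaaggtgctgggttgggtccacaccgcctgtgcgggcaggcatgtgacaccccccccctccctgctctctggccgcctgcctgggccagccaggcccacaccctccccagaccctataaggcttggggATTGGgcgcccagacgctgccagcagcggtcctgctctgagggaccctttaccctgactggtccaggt
Plin5 promoter: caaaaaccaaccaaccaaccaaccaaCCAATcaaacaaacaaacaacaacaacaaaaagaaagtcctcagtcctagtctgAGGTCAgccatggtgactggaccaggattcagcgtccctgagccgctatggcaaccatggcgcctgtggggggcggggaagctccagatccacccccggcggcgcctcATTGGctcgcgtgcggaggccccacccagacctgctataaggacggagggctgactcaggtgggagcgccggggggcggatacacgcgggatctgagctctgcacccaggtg
Motifs searched on both strands were AGGTCA, its direct repeat with 1 base between copies (bound by PPAR-RXR, and itself a match to AGGTCA), the E-box CACGTG, the box CCAAT and the FOXO motif GTAAACA. The core AGGTCA occurred in the window of Lpin1 from base −74 and in that of Plin5 from base −170, and was found in 16.3% of 32841 promoter windows. A further window of Plin5, not shown, held AGGTCA from base 14. CCAAT occurred in the windows of Plin4 from base −18 and of Plin5 from bases −224 and −62, and in 37.4% of all windows. It also occurred in those of Gm26588 from base −17 and of Plin3 from base −75. The Gm26588 window, chr6:88742542-88742841, lies far from the Mgll window, whereas Gm26588 in the file ends 1448 bp past the start of Mgll. Base −17 is therefore counted from a RefSeq start that need not be that of the feature counted by the authors. The direct repeat was in none of the 8 members' windows and in 0.0396% of all. The Mgll window shown held CACGTG from base −44 and GTAAACA from base −241, which 7.15% and 3.65% of all windows hold. Separate windows of Lipe held the same motifs, from bases −155 and −119. These matches describe letters only. Dgat1 and Dgat2 had no window in the RefSeq set used. The span of Lpin1 is longer in the file than in M21, 111298 against 75298 bp, so this window need not be the start counted by the authors.

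Among the lipases, Pnpla2 encodes adipose triglyceride lipase, which removes the first fatty acid (ENSMUSG00000025509, chromosome 7, 141035111 to 141040656, plus strand). It counted 55.1, 49.4 and 35.8 CPM in control, 57.1, 110.5 and 89.1 CPM on the high-fat diet, and 125, 46.7 and 57.2 CPM with carnitine. The high-fat diet libraries were all above control, high-fat diet 1 by a small margin, while carnitine 1 was the highest of all and carnitine 2 lay within the control range. Means were 46.8 ± 9.91, 85.6 ± 26.9 and 76.3 ± 42.6 CPM. The log2 fold change was 0.87 on the high-fat diet against control (SE 0.33, interval 0.19 to 1.56, adjusted p = 0.538), 0.71 with carnitine against control (SE 0.33, adjusted p = 0.465) and −0.16 with carnitine against the high-fat diet (interval −0.84 to 0.51). Without carnitine 1 the value against control was 0.16.

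The 2 libraries with the most Pnpla2, carnitine 1 and high-fat diet 2, also had the highest sums of the 8 endothelial markers, at 188 and 104 CPM against 45.0 to 62.1 CPM in the other 7. Fabp4, which capillary endothelium and adipocytes express, was at 129.7 CPM in carnitine 1 and 78.7 CPM in high-fat diet 2, against 38.1 to 60.9 CPM in the other libraries. The part of these markers in the Pnpla2 values was not tested.

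Lipe, the hormone-sensitive lipase that acts mainly on diacylglycerol (ENSMUSG00000003123, chromosome 7, 25078952 to 25098135, minus strand), had 22 to 58 counts per library. Means were 11.1 ± 0.676, 13.0 ± 2.86 and 16.9 ± 6.87 CPM, with the highest library, carnitine 3, at 24.5 CPM and overlapping groups. The log2 fold changes were 0.23, 0.38 and 0.61 in the order of comparisons given above (SE 0.42 each, smallest adjusted p = 0.675). The whole span of Lipe lies within the non-coding feature 4732471J01Rik on the opposite strand, with 918 bp of exon shared in M21, 15.6% of the exon sequence of Lipe. That feature counted 211, 219 and 159 CPM in control, 221, 239 and 197 CPM on the high-fat diet, and 276, 289.9 and 281 CPM with carnitine. Its carnitine libraries were above all others, with a log2 fold change of 0.52 against control (SE 0.23, adjusted p = 0.406) and 0.37 against the high-fat diet (SE 0.22, adjusted p = 0.521). The sum of Lipe and this feature averaged 208 ± 32.1, 232 ± 19.9 and 299 ± 7.58 CPM and did not pass either (0.53 against control, SE 0.22, adjusted p = 0.387). Over all libraries 4732471J01Rik held 5682 counts and Lipe 332, so the sum mostly follows the former and is no level of Lipe.

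**Figure D4:**
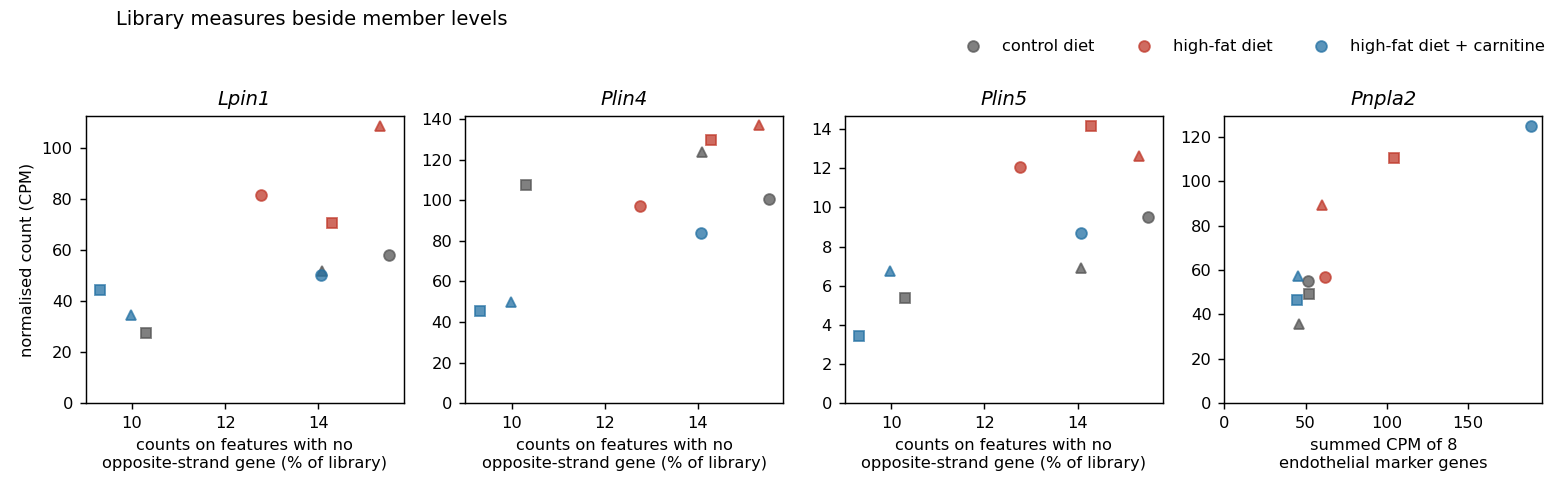
Normalised count (CPM, vertical axes from 0) of Lpin1, Plin4 and Plin5 against the share of each library's counts on features with no opposite-strand gene, and of Pnpla2 against the summed CPM of 8 endothelial markers. Colours are groups and symbols replicates. Control 2, carnitine 2 and carnitine 3 had shares of 9.31% to 10.3%, and carnitine 1 had the highest endothelial sum, 188 CPM.

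Lpin1 and Plin5 were lowest in the libraries with the smallest shares of counts on features with no opposite-strand gene. Control 2, carnitine 2 and carnitine 3 were the 3 lowest for both genes, at 27.4 to 44.5 CPM for Lpin1 and 3.43 to 6.73 CPM for Plin5. Carnitine 1, with a share of 14.1%, was below all 3 high-fat diet libraries for Lpin1, Plin4 and Plin5 alike, at 50.4, 83.8 and 8.72 CPM. In the comparison of carnitine with the high-fat diet, the median log2 fold change was −0.31 over features free of an opposite-strand gene and 0.16 over the others. Plin4, which falls in the second class through the 17 bp it shares with Hdgfl2, was at −1.16 when the classes were scaled separately (SE 0.27, adjusted p = 0.120), and Plin5 at −0.74 (SE 0.47, adjusted p = 0.650). With the share as a covariate Plin4 was at −0.74 (SE 0.26, adjusted p = 0.744) and Plin5 at −0.61 (SE 0.53, adjusted p = 0.905).

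Per transcript length, in the authors' deposited FPKM, which takes all reads of a row as those of the named gene, Plin4 and Pnpla2 led in control at 16.7 ± 2.65 and 14.8 ± 2.93, a difference within their spread. Lpin1 followed at 4.49 ± 1.79, Gm26588 at 3.79 ± 0.918, Plin5 at 3.37 ± 1.09 and Plin3 at 3.15 ± 0.691, whose libraries overlapped. Dgat1 at 1.84 ± 0.550 overlapped both Lipe at 1.81 ± 0.219 and Mgll at 1.11 ± 0.445, which did not overlap each other, and Dgat2 was lowest at 0.406 ± 0.251. On the high-fat diet Pnpla2 was at 30.9 ± 11.01 and Plin4 at 20.7 ± 4.08, with Gm26588 at 9.66 ± 1.78, Lpin1 at 9.43 ± 1.86 and Plin5 at 6.72 ± 0.903. With carnitine Pnpla2 was at 24.6 ± 16.0, Gm26588 at 11.4 ± 2.89 and Plin4 at 9.07 ± 4.04. Plin4 was above Gm26588 in every control and high-fat diet library, at 14.96 to 23.3 against 2.74 to 11.7 FPKM, and below it in the 3 carnitine libraries, at 6.42 to 13.7 against 8.27 to 14.0 FPKM. In carnitine 1 the 2 were nearly equal, at 13.7 and 14.0 FPKM.

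Other genes of droplet metabolism were taken from 5 lists with 96 entries, and none of their tested genes passed in any comparison by edgeR's test. Of the genes named from them, Cop1, Prkacb, Fabp4, Vldlr, Dbi, Foxo3, Ppard and Klf15 overlap no opposite-strand feature, and the others do. In triglyceride synthesis 10 of 24 genes were tested, with medians of −0.12, −0.08 and 0.01 on the high-fat diet against control, with carnitine against the high-fat diet and with carnitine against control. Gpat3, which starts glycerolipid synthesis, was at 9.90 ± 0.898 against 3.40 ± 1.34 CPM on the high-fat diet against control (log2 fold change 1.501, SE 0.54, adjusted p = 0.466) and at 1.34 with carnitine against control. The acyl-CoA synthetase gene Acsl5 was at 7.26 ± 4.02 CPM in control, 1.77 ± 1.26 CPM for the high-fat diet and 7.43 ± 2.07 CPM with carnitine (−1.98 and 2.03 in the first comparisons, adjusted p = 0.473 and 0.272). Its high-fat diet mean was near the limit of 3 counts, 0.696 to 1.11 CPM in those libraries. The glycerol-3-phosphate dehydrogenase gene Gpd1 was at −0.60 with carnitine against the high-fat diet and −0.81 against control (adjusted p = 0.296).

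Lipolysis and its regulators had 9 of 23 genes tested and medians of 0.14, −0.35 and −0.14. Their smallest unadjusted p-values belonged to the phospholipase gene Pnpla8 at 0.57 and the ubiquitin ligase gene Cop1 at 0.88 on the high-fat diet, and to Cop1 at −1.25 and the protein kinase A subunit gene Prkar2a at −0.59 with carnitine against the high-fat diet. Against control the carnitine group had Prkar2a at −0.51 and Prkacb, another subunit gene, at 0.95 (smallest adjusted p in these comparisons 0.504). Prkacb was low, at 3.66 ± 1.52 against 1.81 ± 2.86 CPM, and ran from 0.44 to 3.98 with a library left out. Droplet coat, assembly and size genes had 11 of 21 tested and medians of 0.08, −0.34 and −0.06. Among them Pcyt1a, of phosphatidylcholine synthesis, was at 0.83 and the droplet protein gene Aup1 at −0.71 on the high-fat diet, Mfn2, of mitochondrial fusion, at −0.52 and Aup1 at 0.66 with carnitine against the high-fat diet, and Mfn2 at −0.52 and Rab7 at −0.40 against control (smallest adjusted p = 0.486).

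Fatty acid uptake and binding had 9 of 12 genes tested. Of these, 8 were above 0 on the high-fat diet against control (median 0.66, beside 0.0042 over all features), 1 with carnitine against the high-fat diet (median −0.50, beside −0.01) and 5 with carnitine against control (median 0.01). Most of the tested genes overlap no opposite-strand gene. All tested features of that class had medians of 0.12, −0.31 and −0.19 in the same order. Fabp3, the fatty acid binding protein of muscle, was at 134 ± 60.6 against 81.1 ± 21.4 CPM on the high-fat diet against control (0.73, SE 0.34, adjusted p = 0.773) and Fabp4 at 0.66 (SE 0.33, adjusted p = 0.803). With carnitine against the high-fat diet Got2 was at −0.53 and the lipoprotein receptor gene Vldlr at −0.49, and against control Fabp4 was at 0.82 (adjusted p = 0.358; 0.15 without carnitine 1) and the acyl-CoA binding protein gene Dbi at −0.87.

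Transcription factors that act on droplet genes had 11 of 16 tested. Of these, 6 were above 0 on the high-fat diet against control (median 0.0036), 0 with carnitine against the high-fat diet (median −0.84) and 2 with carnitine against control (median −0.35), beside 50.6%, 49.4% and 49.7% of all features. Some of the 11 overlap no opposite-strand gene, a class with medians of −0.31 and −0.19 in the comparisons with carnitine. The others, among them Mlxip and Esrra, do overlap one, a class with medians of 0.16 and 0.09 there. Those others were also all below 0 with carnitine against the high-fat diet. The fatty acid sensor gene Ppard was at 1.84 ± 0.114 against 7.79 ± 2.54 CPM with carnitine against the high-fat diet (log2 fold change −2.05, SE 0.66, adjusted p = 0.231), and Mlxip, of glucose sensing, at −1.58 in both comparisons with carnitine (adjusted p = 0.326 and 0.358). Klf15, a regulator of muscle lipid use, was at 10.0 ± 1.72 against 21.2 ± 5.56 CPM with carnitine against control (−1.08, SE 0.41, adjusted p = 0.310). On the high-fat diet against control Foxo3 was at 1.99 (SE 0.85, adjusted p = 0.664) and Esrra at 0.53 (adjusted p = 0.877). Foxo3 was low, at 6.05 ± 2.16 against 1.43 ± 0.817 CPM, with a control mean near the limit of 3 counts. Ppard was also near that limit with carnitine, where it was 1.14 to 1.44 CPM. Before adjustment 4 of the 11 were lower at p below 0.05 in each comparison with carnitine, where 6.58% and 6.03% of all features were.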

How the data were processed

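RNA of 9 muscle libraries was sequenced; the mRNA library kit is a stranded type, per the labels' protocols. The submitters' processing notes name edgeR, HTSeq 0.13.5, HISAT2 2.2.0, Bowtie2 2.4.2 and Trim Galore 0.6.4, and the builds GRCh38, GRCm39 and Rnor_6.0, with no roles. The deposited sheet holds the authors' raw counts of reads per gene and their FPKM values, whose ratio to the counts followed the count totals (largest relative deviation 7.22e-15 over 2896 genes). Coordinates differ from those of GRCm38, and GRCm39 is the other mouse build named. Only counts were tested.

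The members and lists were chosen with earlier results of these data known. All 9 libraries entered one fit by edgeR 4.0.16 (R 4.3.3; quasi-likelihood F-test, robust, TMM, default expression filter, 3 groups, no covariate), checked on simulated data, with Benjamini-Hochberg adjustment over 7523 features and a threshold of 0.05. The simulation gave every feature the same dispersion and no shift particular to a library. It therefore does not give the error rate of the calls in these data. SEs were derived from F and the log2 fold change, and intervals are 95%. Alternatives included DESeq2 1.42.0, limma-voom (limma 3.58.1), other scalings and leaving out each library. The covariate fit, and the alternatives for named genes that are no members, were added after the data were seen. An opposite-strand gene is one whose span overlaps in the file; shared exons come from M21. Replicates differed beyond sampling noise (chi-square per degree of freedom at least 8.26 within a group). Named genes were all members, features overlapping them, and the 2 genes with the smallest p per list and comparison.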

Additional observations from a re-analysis of the deposited data

How the results depend on the processing

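In carnitine against control 1 member was called in every setting that used all libraries, 0 in the fit of the 6 libraries alone (edgeR, 2 at an unadjusted p below 0.05) and 0 to 2 when a library was left out. In carnitine against the high-fat diet the count was 1 with DESeq2 and 0 to 1 with a library left out, and in high-fat diet against control it was 0 in every setting (edgeR, DESeq2 and limma-voom; 2 to 4 at an unadjusted p below 0.05). Counts over all features moved more. For carnitine against control 32 became 18 without normalisation factors, 60 without a filter, 14 with the covariate, 69 with DESeq2, 10 in the 6 libraries alone, 20 with classes scaled separately and 5 (without carnitine 2) to 86 (without carnitine 1). For carnitine against the high-fat diet 4 became 10, 26, 0 (445 at an unadjusted p below 0.05), 42, 0 (889) and 0 (778) in the same order, and 1 to 84 (without carnitine 1). For high-fat diet against control 4 became 0 (528), 68, 9, 35, 40 and 0 (519), 18 with limma-voom, 10 with the replicate number as a block and 0 (without control 2 or high-fat diet 3) to 13 (without control 1). The cause was not tested.

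Uncalled values that changed sign were, for carnitine against the high-fat diet, Dgat1 (−0.13 without normalisation factors, −0.16 with the covariate, −0.12 with limma-voom, −0.33 to 0.46 with a library left out), Plin3 (0.12 with the covariate, 0.14 with classes apart, −0.78 to 0.26), Pnpla2 (0.23, 0.11, −0.72 to 0.070), Lipe (−0.0047 to 0.59) and Mgll (0.28 summed with its opposite features). For carnitine against control they were Lpin1 (0.27 with the covariate, 0.14 with classes apart, −0.34 to 0.12) and Plin5 (0.13 with the covariate, −0.53 to 0.094). For high-fat diet against control the sum of Plin4 and Hdgfl2 was at −0.44, which is no value of Plin4 itself. Plin4 alone stayed above 0 there, from 0.024 with the covariate to 0.31 without normalisation factors. Hdgfl2 changed sign in carnitine against the high-fat diet (−0.050 without normalisation factors, −0.063 with the covariate, −0.012 with classes apart). Other values of members and named genes kept their direction. Replicate numbers did not pair libraries (1 of 9 same-numbered pairs had a correlation above 0.1, range −0.16 to 0.14). With the replicate block Gm26588 was at 1.60 against control (adjusted p = 0.0250), and member counts were unchanged. Counts of 0 to 69 per library limit Dgat1, Dgat2, Mgll, Plin3, Plin5 and Lipe.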
